A study of Homo sapiens with 19 samples.

Results

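The genes described here are 10 transcriptional feedback regulators of the ERK branch of mitogen-activated protein kinase (MAPK) signalling: DUSP4, DUSP5, DUSP6, SPRY1, SPRY2, SPRY4, SPRED1, SPRED2, ETV4 and ETV5. They were taken by symbol from a fixed list, whatever their values, and all 10 were found among the 44717 Ensembl genes listed in the read-count tables of 19 RNA-seq samples. In ERK signalling, activated receptors load RAS with GTP, RAS recruits RAF, and RAF and MEK pass the signal on to the kinases ERK1 and ERK2. Active ERK raises transcription of inhibitors of its own pathway, and their mRNA is widely used as a readout of pathway output. In melanoma the pathway is often locked on by mutation of BRAF or NRAS, whereas cultured melanocytes depend on growth factors and phorbol ester to drive it.

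The samples came from 2 human lines. 501Mel is a melanoma line grown in RPMI medium with fetal calf serum, and Hermes 3A is an untransformed, immortalised melanocyte line grown in the same base medium with TPA (a phorbol ester), cholera toxin, stem cell factor and endothelin-1. In each line a lentivirus expressed 1 short hairpin RNA (shRNA): shBRG1 against SMARCA4, which encodes BRG1, the ATPase of a SWI/SNF chromatin remodelling complex; shMITF against MITF, the lineage transcription factor of melanocytes; or a scrambled control. The 501Mel groups were shSCR1 (n = 3), the control of shBRG1 (n = 3), and shSCR2 (n = 2), the control of shMITF (n = 2). In Hermes 3A, shSCR (n = 3) was the control of both shBRG1 (n = 3) and shMITF (n = 3), so that both comparisons share their control samples. All groups carry an integrated virus, each target was hit by 1 hairpin, and line, medium and any batch cannot be told apart. The labels do not say whether replicates were separate cultures, and p-values then measure only the spread between these samples.

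Library totals ranged from 29158502 to 78857900 counts, and each of the 10 genes had between 206 and 45976 counts in every sample and passed the expression filter in every comparison. Log2 values are given ± SE. The targeted genes fell as labelled: SMARCA4 to 19.5% of its scramble level in 501Mel (log2 change -2.36 ± 0.054) and to 19.2% in Hermes 3A (-2.38 ± 0.048), and MITF under shMITF to 47.9% in 501Mel (-1.06 ± 0.14) and 55.3% in Hermes 3A (-0.85 ± 0.19). MITF also fell under shBRG1, to 34.2% in 501Mel and 74.1% in Hermes 3A. The scramble groups of 501Mel differed in MITF, which was 0.97 ± 0.081 (log2) higher in shSCR2 than in shSCR1. The falls with shMITF and shBRG1 in that line thus started from different control levels. Replicates of shBRG1 and its controls were tight, with a common biological coefficient of variation of 4.74% in 501Mel and 5.75% in Hermes 3A. The shMITF comparisons were looser, at 17.4% and 21.6%, and in Hermes 3A replicate 2 of shMITF had the highest MITF level of its group, 660.4 CPM (counts scaled to each library's normalised total) against 414 and 494. Over all genes it was replicate 1 of that group that lay farthest from the others, with a chi-square per degree of freedom of 155 and 157 against replicates 2 and 3, and 105 between those. All 7 melanocyte markers were detected in every group. Their summed level, on the joint scale of all samples, was 29327 to 31534 CPM in shSCR1 and 3111 to 3406 in shBRG1 of 501Mel, and 63357 to 64552 in shSCR, 30249.6 to 31891 in shBRG1 and 25936 to 34023 in shMITF of Hermes 3A. The 4 fibroblast markers summed to 3.45 to 4.73, 15.1 to 18.6, 71.1 to 79.8, 137 to 147 and 111 to 217 CPM in those groups in the same order, each of them with counts in every group. In shSCR2 and shMITF of 501Mel the melanocyte markers summed to 20748 to 23264 and 11374 to 11789 CPM and the fibroblast markers to 7.34 to 8.40 and 6.89 to 12.8. These sums hide markers that went opposite ways. COL1A2 reached 7654 counts in a sample, and COL1A1, LUM and DCN at most 589, 475 and 24. In shSCR1 against Hermes 3A shSCR, COL1A2 (-9.23 ± 0.17) and LUM (-1.91 ± 0.17) were lower and COL1A1 (2.07 ± 0.31) was higher. DCN was at 1.41 ± 0.63. DCT was higher in shSCR1 (6.14 ± 0.16) and the other 6 melanocyte markers were lower. The part of either list in the results was not tested. The keratinocyte markers KRT1, KRT5 and KRT14 reached at most 1, 3 and 7 counts, and the leukocyte markers PTPRC and CD3E at most 4 and 2, in any sample that lists them. In bulk RNA, fewer cells of one kind and less RNA per cell cannot be told apart.

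The 3 DUSPs are MAP kinase phosphatases (MKPs), which remove phosphate from both activating residues of the kinase: DUSP6 acts on ERK in the cytoplasm, DUSP5 on ERK in the nucleus, and DUSP4 in the nucleus on ERK and other MAP kinases. Sprouty proteins (SPRY1, SPRY2, SPRY4) block the path from receptors to RAS and RAF, and the related SPRED1 and SPRED2 bring neurofibromin, a RAS GTPase-activating protein, to the membrane. ETV4 and ETV5 differ from the others in being ETS-family activators, not inhibitors, and serve as nuclear effectors whose transcription follows ERK activity.

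The promoter windows of 4 members are shown because they cover the members whose responses contrast most in the results: the 3 Sproutys, which rose in several comparisons, and DUSP6, which fell. Each runs 5′ to 3′ from 250 bases before to 50 bases after a RefSeq transcription start on GRCh38.p14, in the direction of the gene, and capitals mark the M-box core, CATGTG or its reverse complement CACATG, a variant E-box of the kind MITF binds as a dimer.
SPRY1 (chr4:123396545-123396844, plus strand): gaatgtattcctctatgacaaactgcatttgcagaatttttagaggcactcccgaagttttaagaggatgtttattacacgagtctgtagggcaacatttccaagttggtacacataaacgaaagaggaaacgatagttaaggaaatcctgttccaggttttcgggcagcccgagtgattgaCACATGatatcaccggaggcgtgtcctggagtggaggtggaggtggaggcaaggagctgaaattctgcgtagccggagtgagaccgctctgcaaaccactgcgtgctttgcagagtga
SPRY2 (chr13:80341077-80341376, minus strand): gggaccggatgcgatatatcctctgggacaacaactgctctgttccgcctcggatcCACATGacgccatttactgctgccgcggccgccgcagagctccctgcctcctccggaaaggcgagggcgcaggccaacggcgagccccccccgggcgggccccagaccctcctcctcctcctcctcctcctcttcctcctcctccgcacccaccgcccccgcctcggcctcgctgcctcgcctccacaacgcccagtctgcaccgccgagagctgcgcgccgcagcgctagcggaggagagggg
SPRY4 (chr5:142324198-142324497, minus strand): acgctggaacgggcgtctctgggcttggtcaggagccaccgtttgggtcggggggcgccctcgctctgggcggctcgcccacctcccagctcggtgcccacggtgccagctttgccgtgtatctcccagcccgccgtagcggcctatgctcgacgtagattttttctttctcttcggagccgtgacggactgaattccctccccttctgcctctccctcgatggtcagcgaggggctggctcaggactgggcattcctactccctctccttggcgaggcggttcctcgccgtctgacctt
DUSP6 (chr12:89352452-89352751, minus strand): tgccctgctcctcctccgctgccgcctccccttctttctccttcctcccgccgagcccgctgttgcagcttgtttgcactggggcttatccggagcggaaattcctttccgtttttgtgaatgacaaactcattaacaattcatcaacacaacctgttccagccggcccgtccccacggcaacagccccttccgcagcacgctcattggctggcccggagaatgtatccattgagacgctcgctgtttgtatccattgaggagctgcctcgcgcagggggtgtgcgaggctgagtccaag
The SPRY1 window held CACATG at position -68 from the start and the SPRY2 window at position -194. No window of SPRY4 or DUSP6 held the M-box core or any of the other motifs searched on both strands: E-box CACGTG, ETS CCGGAAGT, AP-1 TGACTCA, CRE TGACGTCA and SOX ACAAAG. Of the 35116 windows in the table, 11.1% held the M-box core, 7.26% the E-box, 4.14% the ETS, 4.95% the AP-1, 1.85% the CRE and 16.1% the SOX letters. The table holds 3 windows for SPRY2, 2 for SPRY1 and 2 for SPRED2. For SPRY1 and SPRY2 the window shown is the only one of that gene with the M-box core. The other SPRY1 window held none of the motifs. The other SPRY2 windows held ACAAAG at -116 and its reverse complement CTTTGT at -154, and SPRED2 held TGACTCA at -6 from one start and ACAAAG at -57 from the other. These matches are letters in a window and were not tested as sites.

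Between the lines the 10 genes differed in both directions. To compare genes, levels were divided by exon length. In shSCR1 of 501Mel the highest were ETV5, at 104 ± 6.09 CPM per kb (SD, n = 3), DUSP6 at 43.2 ± 1.74 and DUSP4 at 27.3 ± 1.01, and the lowest were DUSP5 at 8.04 ± 1.28 and SPRY1 at 8.67 ± 0.839. In shSCR of Hermes 3A the order was led by DUSP4, at 78.9 ± 1.52 CPM per kb, then DUSP6 at 72.7 ± 1.45, ETV5 at 45.0 ± 0.327 and SPRY2 at 36.2 ± 1.22, and closed by SPRY1 at 1.63 ± 0.127. DUSP4 and SPRY2 were thus high in the melanocyte line and ETV5 in the melanoma line.

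**Figure D1:**
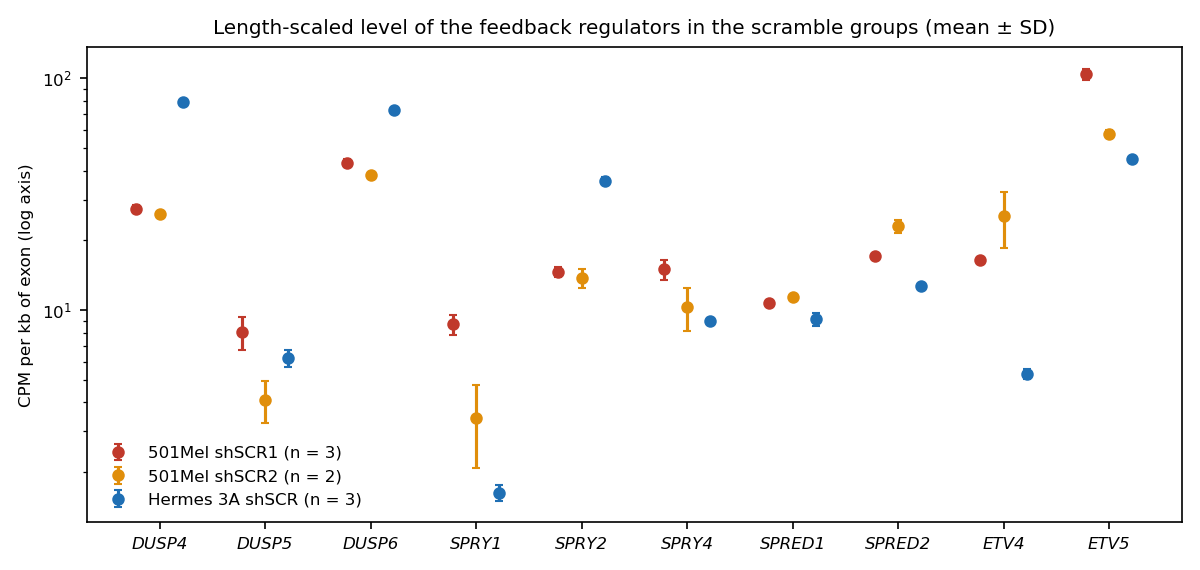
Level of the 10 genes in the 3 scramble groups, in CPM per kb of exon, on a log axis. Points are group means and bars are SD; DUSP4 and SPRY2 are highest in Hermes 3A, and SPRY1, ETV4 and ETV5 are lowest there.

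With edgeR's quasi-likelihood test on the scramble groups, DUSP4 was lower in 501Mel than in Hermes 3A, with a log2 difference of -1.54 ± 0.055 for shSCR1 (adjusted p = 1.65e-13) and -1.59 ± 0.064 for shSCR2 (adjusted p = 9.05e-13). SPRY2 differed by -1.32 ± 0.069 and -1.39 ± 0.08, and DUSP6 by -0.76 ± 0.056 and -0.93 ± 0.064, each lower in the melanoma line with an adjusted p of at most 2.05e-09 in edgeR's quasi-likelihood test. ETV4 was higher in 501Mel by 1.62 ± 0.12 and 2.26 ± 0.13 (edgeR adjusted p = 6.86e-08 and 5.57e-09), SPRY1 by 2.39 ± 0.19 and 1.03 ± 0.21 (edgeR adjusted p = 1.41e-06 and 0.00151), and ETV5 by 1.20 ± 0.058 and 0.36 ± 0.064 (edgeR adjusted p = 1.02e-11 and 8.68e-05). The SPREDs stood closer, with SPRED2 higher in 501Mel by 0.42 ± 0.059 and 0.86 ± 0.064 and SPRED1 by 0.22 ± 0.064 and 0.32 ± 0.071. A gene was called where the adjusted p was under 0.05 and the log2 change was over 1 in size. By this rule 3 members were called higher and 2 lower in 501Mel with shSCR1, where 23.4% and 17.7% of the 20354 genes tested were, and 2 and 2 with shSCR2, where 21.3% and 21.2% were. At an adjusted p under 0.05 alone, 10 and 9 members differed from Hermes 3A, beside 74.9% and 72.5% of all genes.

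The choice of 501Mel scramble group mattered for several of these genes. SPRY1 read 37.9, 31.3 and 33.9 CPM in shSCR1 and 17.3 and 9.78 in shSCR2 on the joint scale, a difference of -1.36 ± 0.21 (log2, edgeR's quasi-likelihood test, adjusted p = 2.57e-04). DUSP5, ETV5 and SPRY4 were also lower in shSCR2, with differences of -0.97 ± 0.15, -0.84 ± 0.066 and -0.53 ± 0.12, while ETV4 and SPRED2 were higher, by 0.63 ± 0.12 and 0.44 ± 0.064. DUSP5 was higher in 501Mel than in Hermes 3A with shSCR1 (0.36 ± 0.13, edgeR adjusted p = 0.0183) and lower with shSCR2 (-0.61 ± 0.15, edgeR adjusted p = 0.00157). DUSP4, SPRY2 and SPRED1 differed by -0.047 ± 0.061, -0.064 ± 0.077 and 0.10 ± 0.071 and did not pass the test. SPRY1 was the 1 member called between both scramble groups, against 11.8% of genes called higher and 19.7% lower in shSCR2. At an adjusted p under 0.05 alone 7 members differed, and 66.8% of all genes did. MITF itself was higher there, by 0.97 ± 0.081. How far hairpin, culture or batch account for this cannot be told apart.

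Silencing of BRG1 moved all 10 genes in 501Mel, most of them by little: 4 rose and 6 fell at an adjusted p under 0.05, in a comparison where 41.2% of all genes rose and 39.1% fell by that rule. SPRY2 and SPRY4, both more than 2-fold higher, were the only ones called up and none was called down, where 21.7% of the 20514 genes tested were called up and 17.4% down. In Hermes 3A, 3 rose and 5 fell, beside 28.2% and 28.6% of all genes. These changes were all less than 2-fold, so that none was called, against 5.78% of 17222 genes called up and 3.47% down. With shMITF in 501Mel SPRY4 alone was called up, DUSP4 and ETV5 also rose and none fell (background 5.59% called up and 3.40% down of 17701, and 10.0% higher and 10.5% lower by the adjusted p alone). With shMITF in Hermes 3A SPRY1 and SPRED1 were called up, DUSP4 rose, and DUSP6 and ETV5 fell (background 3.35% called up and 4.04% down of 16508, and 7.85% higher and 9.15% lower by the adjusted p alone). The members' median log2 change was -0.30, 0.25, -0.14 and 0.28 for shBRG1 and shMITF in 501Mel and then shBRG1 and shMITF in Hermes 3A, beside medians over all genes of 0.053, 0.01, 0.0093 and 0.045. Of all called genes, 55.5% were higher with shBRG1 in 501Mel, and 72.1% when scaled to library size alone. SPRY2 and SPRY4 were called up in both scalings. With library size alone ETV4 changed sign there, and the other falls were smaller but still passed, at -0.14 for DUSP4, -0.36 for DUSP6, -0.17 for SPRED1, -0.15 for SPRED2 and -0.41 for ETV5, and the rise of SPRY1 was larger, at 0.68. With shMITF in 501Mel the higher share was 62.2% against 72.1%. For Hermes 3A the higher share was 62.5% against 72.5% in shBRG1, and 45.3% against 56.0% in shMITF. With shSCR, shBRG1 and shMITF of Hermes 3A in one fit, 3 of the 8 changes with shBRG1 still passed, those of DUSP4, DUSP6 and ETV5, and those of DUSP5, SPRY1, SPRY2, SPRY4 and ETV4 did not. The log2 changes that did not pass kept nearly the same size. That fit takes in the shMITF samples, whose common biological coefficient of variation alone was 28.6%, against 5.75% for shSCR with shBRG1. The part of this spread in the loss was not tested.

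**Figure D2:**
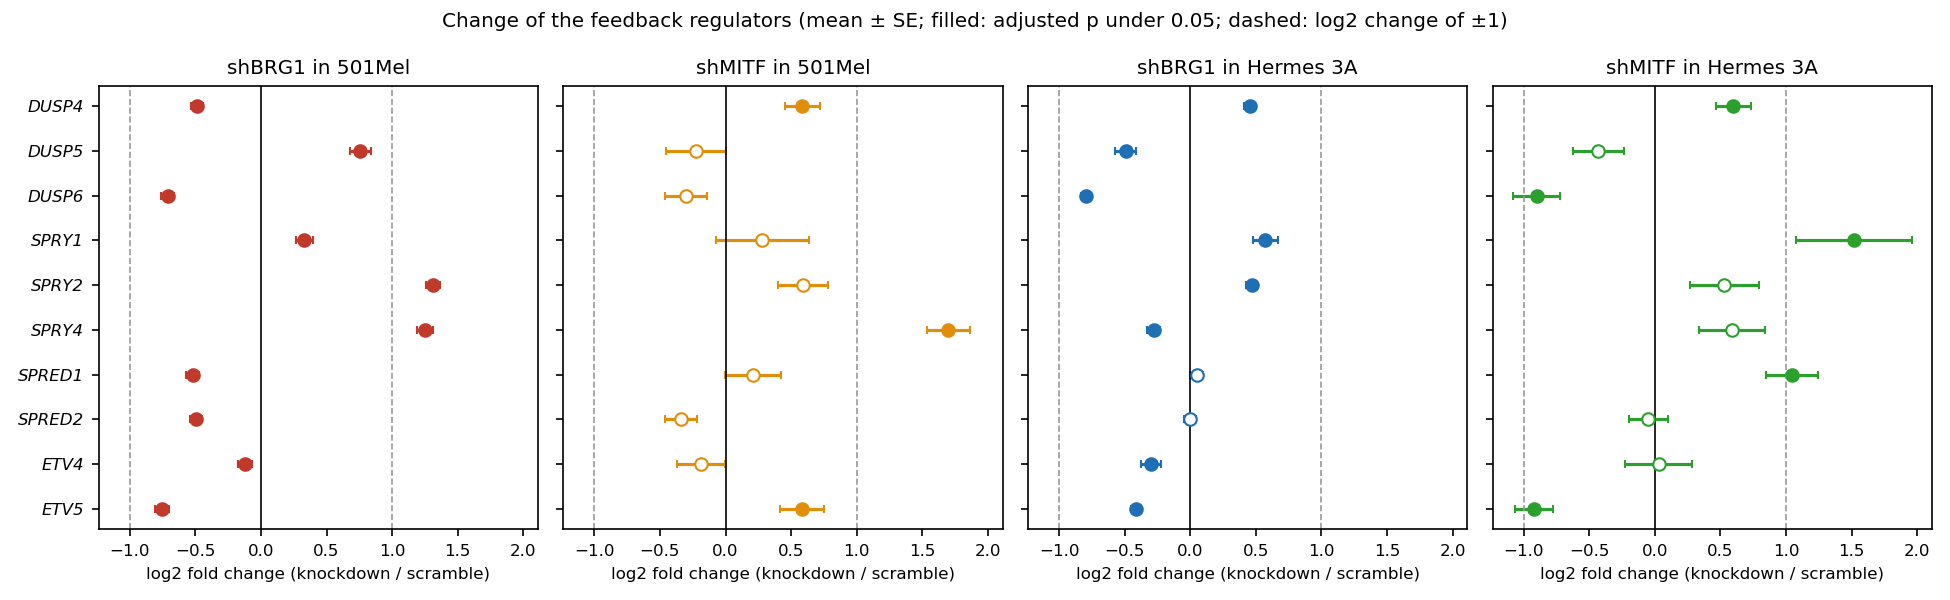
Log2 fold change of each gene (points) with its SE (bars) in the 4 knockdown comparisons. Filled points passed an adjusted p of 0.05 in edgeR's quasi-likelihood test and dashed lines mark a log2 change of 1 either way; SPRY4 lies past that line in both 501Mel comparisons, and DUSP6 lies below 0 in all 4.

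DUSP6, the cytoplasmic ERK phosphatase, had lower levels in every comparison. In 501Mel it measured 244, 231 and 227 CPM in shSCR1 and 154, 142 and 133 in shBRG1. The groups were far apart, and the level fell to 61.1% (log2 change -0.71 ± 0.052, edgeR's quasi-likelihood test, adjusted p = 1.12e-11). In Hermes 3A the values were 295, 306 and 308 CPM in shSCR and 175, 178 and 172 in shBRG1, a fall to 57.8% (-0.79 ± 0.038, edgeR adjusted p = 1.96e-16). The shMITF samples of Hermes 3A read 198, 121 and 166 CPM, all under the controls but spread over a wide range, with replicate 2 lowest. Their fall, to 53.5% (-0.90 ± 0.18, edgeR adjusted p = 0.0134), no longer passed when shSCR replicate 2 (-0.91, edgeR adjusted p = 0.0654) or 3 (-0.90, edgeR adjusted p = 0.0642) was left out. With shMITF in 501Mel, DUSP6 gave 177 and 169 CPM in shSCR2 and 164 and 118 in shMITF. The ranges did not overlap, but the change of -0.30 ± 0.16 did not pass (edgeR adjusted p = 0.22), and it passed only without shMITF replicate 1 (-0.57, edgeR adjusted p = 0.0161).

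DUSP4, a nuclear phosphatase, went opposite ways in the lines after BRG1 silencing. It was 237, 234 and 222 CPM in shSCR1 and 165, 169 and 162 in shBRG1 of 501Mel. All shBRG1 samples were below all controls, a fall to 71.4% (-0.49 ± 0.046, edgeR's quasi-likelihood test, adjusted p = 1.01e-09). In Hermes 3A its level was 510.1, 529 and 504 CPM in shSCR and 689, 722 and 703 in shBRG1. Here every silenced sample was above the controls, and DUSP4 rose 1.37-fold (0.45 ± 0.041, edgeR adjusted p = 1.28e-10). Under shMITF it rose in both lines. Hermes 3A shMITF samples gave 818, 762 and 747 CPM, a 1.51-fold rise with replicate 2 between the others (0.60 ± 0.13, edgeR adjusted p = 0.0189). In 501Mel the values were 188 and 184 CPM in shSCR2 and 249.6 and 308 in shMITF, a 1.50-fold rise (0.59 ± 0.13, edgeR adjusted p = 0.016). The shMITF rises did not pass in every setting. Without any 1 of the shSCR samples the Hermes 3A rise kept nearly the same size (0.58, 0.60 and 0.57, by replicate number). It did not pass in those fits (edgeR adjusted p = 0.138, 0.111 and 0.134). The 501Mel rise was 0.42 without shMITF replicate 2. It did not pass against both scramble groups pooled (0.54, edgeR adjusted p = 0.0736).

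DUSP5 (chr10:110497838-110511544, plus strand, on GRCh38), the nuclear phosphatase that acts on ERK alone, was the least abundant of the 3 per kb in every group. In 501Mel it measured 28.8, 23.4 and 21.4 CPM in shSCR1 and 41.2, 44.2 and 39.5 in shBRG1, a 1.69-fold rise with no overlap (0.76 ± 0.079, edgeR's quasi-likelihood test, adjusted p = 1.70e-08). In Hermes 3A it went down, from 14.6, 16.0 and 13.4 CPM in shSCR to 9.83, 10.6 and 10.8 in shBRG1 (-0.49 ± 0.08, edgeR adjusted p = 5.43e-06), which did not pass with all Hermes 3A groups in one fit (-0.50, edgeR adjusted p = 0.0515). With shMITF the changes were -0.23 ± 0.23 in 501Mel and -0.43 ± 0.20 in Hermes 3A, neither of which passed (edgeR adjusted p = 0.527 and 0.169). DUSP5 has a processed pseudogene, DUSP5P1, listed with 1 to 63 counts per sample, 0.251% to 7.78% of the DUSP5 count, and reads shared by both could have been split.

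SPRY4, a receptor-to-RAS inhibitor, rose in 501Mel after both knockdowns, by the most of the 10 genes under shMITF and close to SPRY2 under shBRG1. It measured 77.0 and 56.1 CPM in shSCR2 and 215 and 216 in shMITF. Both silenced samples were far above the controls, a 3.25-fold rise (1.70 ± 0.16, edgeR's quasi-likelihood test, adjusted p = 4.64e-04). For shBRG1 the values were 128, 111 and 106 CPM in shSCR1 and 269, 286 and 266 in shBRG1, a 2.38-fold rise (1.25 ± 0.058, edgeR adjusted p = 1.59e-15). In Hermes 3A, by contrast, SPRY4 was 54.3, 52.6 and 51.6 CPM in shSCR and 42.6, 43.9 and 44.0 in shBRG1. The silenced samples were all slightly lower, at 82.4% (-0.28 ± 0.05, edgeR adjusted p = 2.11e-05), and this did not pass with all Hermes 3A groups in one fit (-0.28, edgeR adjusted p = 0.42). The Hermes 3A shMITF samples were 104, 46.9 and 87.1 CPM: replicates 1 and 3 were above the controls and replicate 2 below them. The change over all 3, 0.59 ± 0.25, did not pass (edgeR adjusted p = 0.144), and without replicate 2 it was 0.86 (edgeR adjusted p = 0.00373).

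SPRY2 was higher after BRG1 silencing in both lines. It was 54.5, 51.4 and 49.6 CPM in shSCR1 and 129.7, 134 and 123 in shBRG1 of 501Mel, a 2.48-fold rise (1.31 ± 0.051, edgeR's quasi-likelihood test, adjusted p = 7.33e-17). The 501Mel control level was under that of the melanocytes, where SPRY2 measured 101, 95.9 and 100 CPM in shSCR and 136, 141 and 133 in shBRG1, a 1.38-fold rise without overlap (0.47 ± 0.041, edgeR adjusted p = 8.18e-11). The Hermes 3A rise did not pass with all groups of that line in one fit (0.47, edgeR adjusted p = 0.188). On the joint scale shBRG1 brought 501Mel to 115 ± 5.29 CPM (SD, n = 3), overlapping the Hermes 3A controls at 110.0 ± 3.69. After MITF silencing SPRY2 did not pass in either line, though in 501Mel this depended on the method. The values were 38.7 and 43.4 CPM in shSCR2 and 74.1 and 49.7 in shMITF of 501Mel, without overlap (0.59 ± 0.19, edgeR adjusted p = 0.061). It did pass there with DESeq2 (0.58, adjusted p = 0.0331), and in edgeR with library size alone (0.69, adjusted p = 0.0398), no expression filter (0.59, adjusted p = 0.00161) or all 501Mel groups in one fit (0.57, adjusted p = 0.0105). In Hermes 3A the shMITF samples gave 193, 82.4 and 151 CPM, replicate 2 again below the controls and the other 2 above (0.53 ± 0.26, edgeR adjusted p = 0.203). Leaving out that replicate gave 0.81 (edgeR adjusted p = 0.00683), and leaving out shMITF replicate 2 in 501Mel gave 0.84 (edgeR adjusted p = 0.0048).

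SPRY1 was the rarest Sprouty in the melanocyte line and rose there after both knockdowns. Its level was 6.28, 5.49 and 5.67 CPM in shSCR and 8.40, 9.34 and 8.22 in shBRG1, a 1.49-fold rise (0.57 ± 0.097, edgeR's quasi-likelihood test, adjusted p = 9.35e-06) that did not pass with all Hermes 3A groups in one fit (0.57, edgeR adjusted p = 0.344). The shMITF samples were 28.2, 6.44 and 15.1 CPM, all above the controls, replicate 2 by little. The fitted rise was 2.87-fold (1.52 ± 0.44), at an adjusted p of 0.0477 in edgeR's quasi-likelihood test. This rise was at the threshold, and its call was lost with no expression filter (edgeR adjusted p = 0.265), without any 1 shSCR sample (1.57, 1.46 and 1.49 by replicate number, edgeR adjusted p = 0.144, 0.165 and 0.16), and without shMITF replicate 1 (0.88, edgeR adjusted p = 0.0847) or 3 (1.58, edgeR adjusted p = 0.0962). Without replicate 2 it was 1.91 (edgeR adjusted p = 0.00421). In 501Mel SPRY1 measured 44.2, 36.7 and 39.6 CPM in shSCR1 and 47.6, 52.5 and 51.5 in shBRG1, a smaller rise of 1.26-fold (0.33 ± 0.062, edgeR adjusted p = 4.13e-05). That rise did not pass with all 501Mel groups in one fit (0.34, edgeR adjusted p = 0.221) or against the shSCR1 and shSCR2 samples together (0.77, edgeR adjusted p = 0.123). Under shMITF in 501Mel the samples overlapped, at 17.1 and 9.52 CPM in shSCR2 and 20.2 and 12.0 in shMITF (0.28 ± 0.35, edgeR adjusted p = 0.627).

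**Figure D3:**
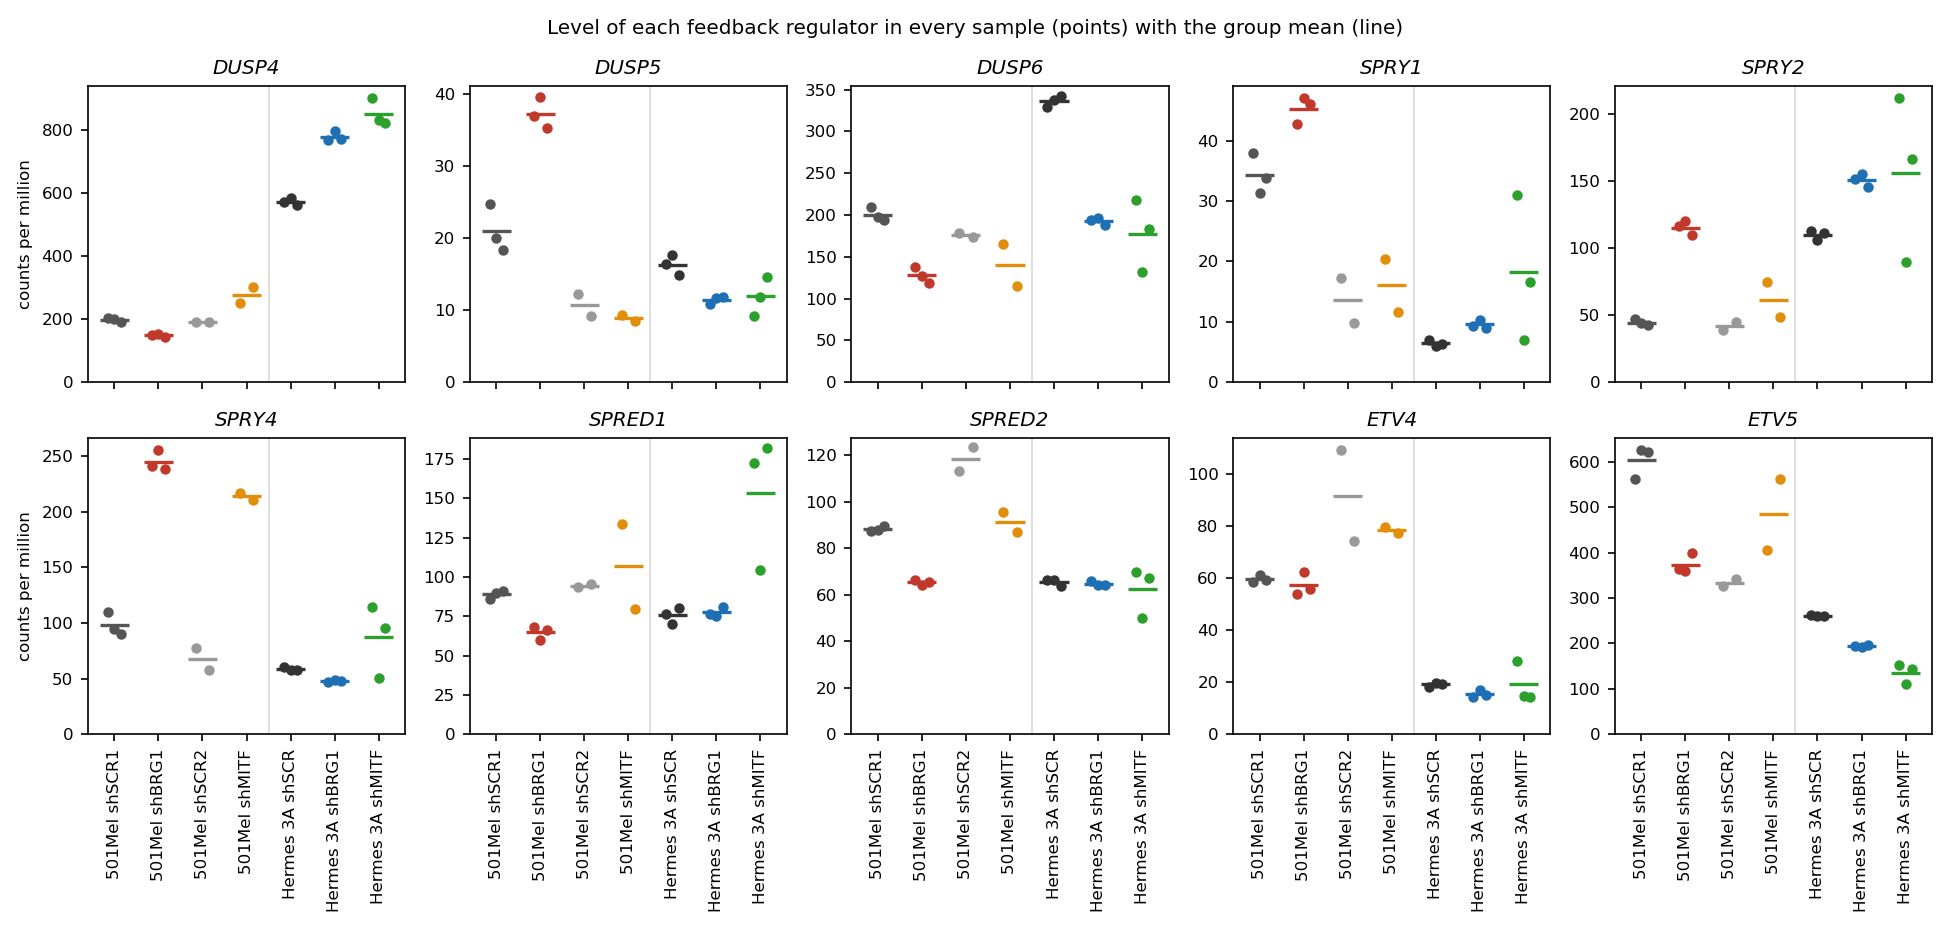
Level of each gene in every sample, in CPM on the joint scale of all 19 samples; points are samples and lines are group means. In Hermes 3A shMITF the middle point (replicate 2) is the lowest of its group for DUSP6, SPRY1, SPRY2, SPRY4, SPRED1, SPRED2 and ETV5.

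The SPREDs, SPRED1 at chr15:38252326-38357249 (plus strand) and SPRED2 at chr2:65310851-65432637 (minus strand) on GRCh38, moved less. SPRED1 was 100.0, 105 and 106 CPM in shSCR1 and 76.1, 67.2 and 73.8 in shBRG1 of 501Mel, a fall to 69.7% (-0.52 ± 0.052, edgeR's quasi-likelihood test, adjusted p = 2.69e-09). In Hermes 3A its largest change came with shMITF, whose samples read 157, 96.1 and 165 CPM against 68.1, 63.5 and 71.2 in shSCR. All 3 were above the controls, a 2.06-fold rise (1.04 ± 0.20, edgeR adjusted p = 0.0108), which was lost without shSCR replicate 2 (0.98, edgeR adjusted p = 0.0707) or 3 (1.07, edgeR adjusted p = 0.0542). With shBRG1 in Hermes 3A the change was 0.049 ± 0.049 (edgeR adjusted p = 0.41), and with shMITF in 501Mel it was 0.21 ± 0.21 (edgeR adjusted p = 0.537), where the silenced samples lay on either side of the controls and the change passed without shMITF replicate 2 (0.51, edgeR adjusted p = 0.047). SPRED2 fell in 501Mel with shBRG1, from 102, 103 and 105 to 74.0, 71.6 and 73.2 CPM (-0.50 ± 0.046, edgeR adjusted p = 6.56e-10). It did not pass elsewhere, with -0.34 ± 0.12 under shMITF in 501Mel (edgeR adjusted p = 0.0763, and 0.00157 with all 501Mel groups in one fit), -0.049 ± 0.15 under shMITF in Hermes 3A (edgeR adjusted p = 0.852) and -0.0033 ± 0.045 under shBRG1 in Hermes 3A (edgeR adjusted p = 0.958), the smallest of the 40 changes measured.

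ETV5 (chr3:186046308-186110318, minus strand, on GRCh38), an ETS activator downstream of ERK, was the most abundant member per kb in 501Mel. It measured 655, 733 and 727 CPM in shSCR1 and 405, 401 and 446 in shBRG1, a fall to 59.2% (-0.76 ± 0.054, edgeR's quasi-likelihood test, adjusted p = 6.23e-12). Against the shSCR1 and shSCR2 samples together the change was smaller and did not pass (-0.43, edgeR adjusted p = 0.174). In Hermes 3A it was 235, 235 and 233 CPM in shSCR and 175, 174 and 179 in shBRG1, a fall to 75.0% (-0.42 ± 0.038, edgeR adjusted p = 1.73e-10). The Hermes 3A shMITF samples were lower again, at 138, 102 and 129.9 CPM, or 52.8% (-0.92 ± 0.14, edgeR adjusted p = 0.0049), and this fall passed without any 1 of the 6 samples. In 501Mel shMITF turned the other way, with 322 and 333 CPM in shSCR2 and 403 and 578 in shMITF. The 1.50-fold rise (0.58 ± 0.17, edgeR adjusted p = 0.0422) was lost without shSCR2 replicate 1 (0.54, edgeR adjusted p = 0.0829) or 2 (0.60, 0.1) or shMITF replicate 2 (0.29, 0.251). Against both scramble groups pooled it was 0.0008 (edgeR adjusted p = 0.999). Exons of ETV5 overlap those of DGKG on the same strand, and reads there could have been counted for either gene.

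ETV4, its paralog (chr17:43527844-43579620, minus strand, on GRCh38), moved least of the ETS pair. In 501Mel it was 68.0, 71.5 and 69.2 CPM in shSCR1 and 60.0, 69.7 and 62.4 in shBRG1, with overlap, a change of -0.12 ± 0.055 that was at the threshold (edgeR's quasi-likelihood test, adjusted p = 0.0478) and had the opposite sign when scaled to library size alone (0.23). It did not pass with DESeq2 (-0.13, adjusted p = 0.055), with all 501Mel groups in one fit (-0.12, edgeR adjusted p = 0.373), against pooled controls (-0.37, edgeR adjusted p = 0.21), or without shSCR1 replicate 2 or shBRG1 replicate 1 or 3 (-0.12, -0.071 and -0.12, edgeR adjusted p = 0.0955, 0.281 and 0.0897). It fell in Hermes 3A with shBRG1, from 16.2, 18.0 and 17.5 to 12.8, 15.5 and 13.6 CPM (-0.30 ± 0.077, edgeR adjusted p = 0.00156), but not by the test with all Hermes 3A groups in one fit (-0.30, edgeR adjusted p = 0.394). With shMITF the changes were -0.18 ± 0.18 in 501Mel and 0.029 ± 0.26 in Hermes 3A (edgeR adjusted p = 0.526 and 0.953), and in the latter shMITF replicate 1 was at 25.7 CPM and the others at 13.6 and 13.1. Exons of ETV4 overlap those of DHX8 on the opposite strand, and the sources used here do not state that counting used strand.

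Whether BRG1 silencing acted differently in the lines was tested directly as the 501Mel change minus the Hermes 3A change. For 8 of the 10 genes the difference passed edgeR's quasi-likelihood test, as it did for 57.9% of all genes. SPRY4 and DUSP5 differed most, by 1.50 ± 0.076 and 1.22 ± 0.12 on the log2 scale (adjusted p = 1.74e-19 and 2.03e-11), and both were called, as were 12.0% of 21697 genes in that direction and 14.9% in the other. DUSP4 followed with -0.97 ± 0.061 (edgeR adjusted p = 1.03e-16), then SPRY2 with 0.81 ± 0.068 (edgeR adjusted p = 3.01e-13). The differences were -0.60 ± 0.075 for SPRED1, -0.53 ± 0.063 for SPRED2, -0.37 ± 0.066 for ETV5 and -0.27 ± 0.11 for SPRY1, all with the lower value in 501Mel (edgeR adjusted p = 7.72e-09, 2.76e-09, 6.32e-06 and 0.0358). DUSP6 was the exception: its falls differed by 0.048 ± 0.066 (edgeR adjusted p = 0.568). ETV4 differed by 0.14 ± 0.092 (edgeR adjusted p = 0.184).

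For MITF silencing the same test found a difference in ETV5 alone, which rose in 501Mel and fell in Hermes 3A (1.49 ± 0.24, edgeR's quasi-likelihood test, adjusted p = 0.00707), where 2.00% of 19284 genes were called in that direction and 0.643% in the other, and 2.99% passed by the adjusted p alone. The 501Mel part of the ETV5 difference was 0.0008 against both scramble groups pooled. SPRY4 and SPRY1 had differences of similar size, 1.10 ± 0.36 and -1.24 ± 0.70, that did not pass with the wide spread of the shMITF samples (edgeR adjusted p = 0.133 and 0.391). DUSP6 differed by 0.60 ± 0.28 and SPRED1 by -0.84 ± 0.33, also without passing (edgeR adjusted p = 0.292 and 0.204).

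Within 501Mel both knockdowns have their own controls, so their effects could be compared on samples they do not share. ETV5 and DUSP4 had lower changes under shBRG1 than under shMITF, with differences of -1.31 ± 0.16 and -1.05 ± 0.11, and DUSP5 had a higher one, 1.00 ± 0.20 (edgeR's quasi-likelihood test, adjusted p = 1.41e-05, 2.04e-06 and 6.16e-04). These 3 were called, against 11.8% of 22255 genes called in the upward and 15.5% in the downward direction. SPRY2 (0.75 ± 0.19), SPRED1 (-0.71 ± 0.23) and SPRY4 (-0.43 ± 0.16) also passed (edgeR adjusted p = 0.0062, 0.0251 and 0.0367), making 6 of 10 beside 48.1% of all genes. The control matters for these values: shSCR1 was above shSCR2 for ETV5, DUSP5 and SPRY4. For SPRY4 the shSCR2 minus shSCR1 difference was -0.53 ± 0.12, larger in size than its difference between effects. The difference between controls for DUSP4 did not pass, at -0.047 ± 0.061. In Hermes 3A the knockdowns share their control, and DUSP6 stood at -0.79 and -0.90, ETV5 at -0.42 and -0.92, DUSP4 at 0.45 and 0.60 and SPRY1 at 0.57 and 1.52 log2 change under shBRG1 and shMITF.

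**Figure D4:**
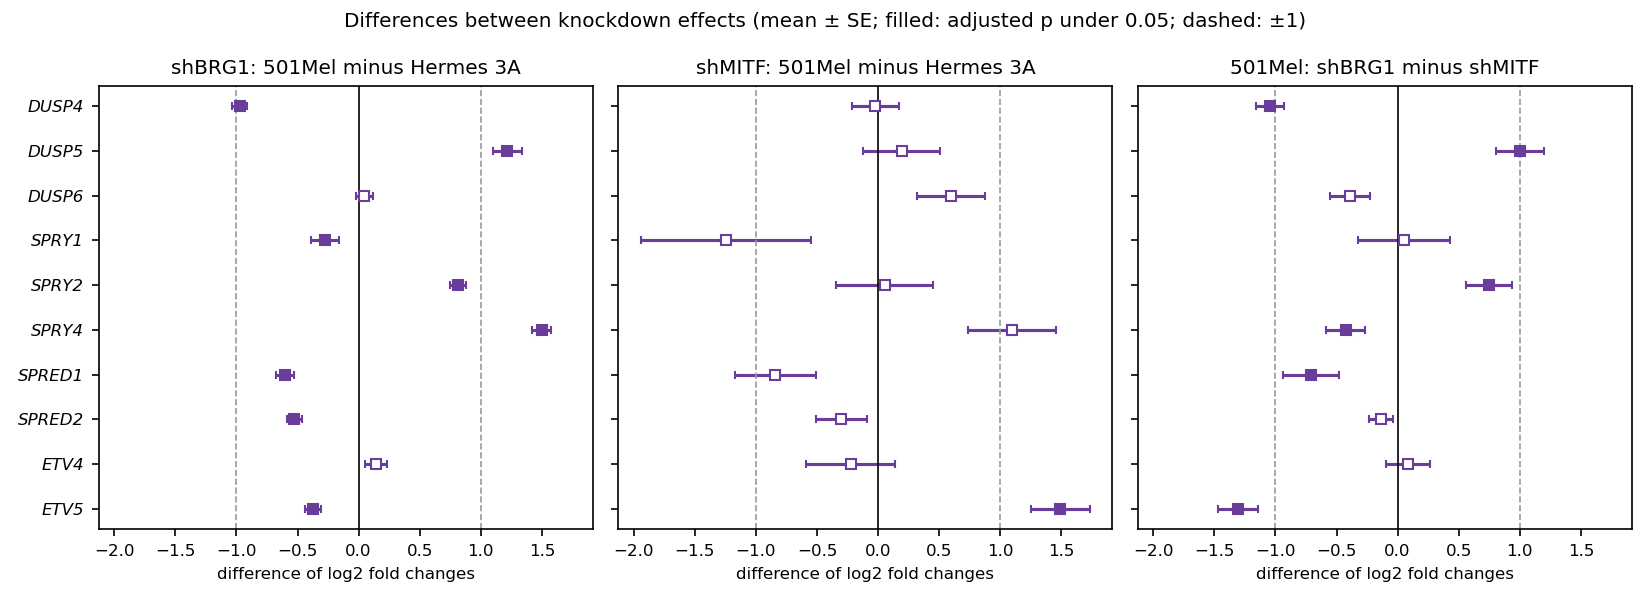
Differences between knockdown effects, each a difference of log2 fold changes (points) with its SE (bars). Filled squares passed an adjusted p of 0.05 in edgeR's quasi-likelihood test; for shBRG1, 8 of the 10 genes differed between lines, and for shMITF only ETV5 did.

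The rest of the pathway was read from lists of genes chosen by role. Their counts stand beside all genes, of which 80.3% passed with shBRG1 and 20.5% with shMITF in 501Mel, and 56.9% and 17.0% in Hermes 3A. In the list for the chain from adaptors to ERK (20 genes), 4 rose and 13 fell with shBRG1 in 501Mel, with a median log2 change of -0.47. The list held RAS, RAF, MEK and ERK themselves, and also NF1 and RASA1, RAS GTPase-activating proteins that act against the signal. NF1 averaged 139 CPM in shSCR1 and 69.6 in shBRG1 on the joint scale, and RASA1 31.6 and 25.8. The largest change in the list was that of PTPN11, the phosphatase SHP2 that passes receptor signals to RAS, at -1.92 ± 0.05. KSR1, the scaffold that joins RAF to MEK, followed at -1.53 ± 0.071, and both were called down. Both also differed between the 501Mel scramble groups, with shSCR2 above shSCR1 for PTPN11 (1.20 ± 0.063) and below it for KSR1 (-1.96 ± 0.10). On the joint scale KSR1 averaged 28.3 CPM in shSCR1, 10.2 in shBRG1 and 7.20 in shSCR2. In Hermes 3A 8 genes of the list rose and 10 fell with shBRG1 and none was called. With shMITF 2 rose and 1 fell in 501Mel and 4 rose and 2 fell in Hermes 3A, again with none called.

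Among the other MKPs, DUSP8, a phosphatase that prefers JNK and p38, rose in 501Mel with shBRG1 from 5.65 to 58.8 CPM (3.37 ± 0.073), a larger log2 change than that of any feedback regulator there. It also rose with shMITF in 501Mel (1.56 ± 0.28) and with shBRG1 in Hermes 3A (1.12 ± 0.068), where DUSP16, another JNK phosphatase, was called up too (1.30 ± 0.056). DUSP9 was called down with shBRG1 in 501Mel, at a low level (-1.82 ± 0.20). Of the remaining relatives, ETV1, the third member of the ETV4 and ETV5 subfamily, was called down with shBRG1 in 501Mel from 236 to 72.4 CPM (-1.71 ± 0.051). SPRED3 was called up with shBRG1 in Hermes 3A (1.24 ± 0.25) and SPRY3 with shMITF in 501Mel (1.66 ± 0.37), both from under 1 CPM.

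The 12 other ERK targets moved both ways. With shBRG1 in 501Mel 5 rose and 6 fell, where 80.3% of all genes passed. Of these, 3 were called up and 3 down, beside 21.7% and 17.4% of all genes. The largest called changes were those of the AP-1 subunit FOSL1 at 2.26 ± 0.11 and the cytokine LIF at 2.17 ± 0.16. LIF went from 0.907 to 4.06 CPM. The receptor EPHA4 averaged 36.6 CPM in shSCR1 and 9.85 in shBRG1 on the joint scale. With shBRG1 in Hermes 3A 5 rose and 7 fell, LIF again up (1.38 ± 0.088) and the immediate-early factor EGR3 down (-1.22 ± 0.066). With shMITF in 501Mel 4 rose and 4 fell, including LIF, from 0.163 to 0.948 CPM (2.59 ± 0.63), and EGR3 (-2.02 ± 0.46). LIF was also lower in shSCR2, the control here, than in shSCR1 (-2.28 ± 0.32). In Hermes 3A only 2 passed with shMITF, both falling: CCND1, which encodes cyclin D1, from 3936 to 1529 CPM (-1.36 ± 0.21), and the receptor EPHA2 (-1.46 ± 0.23). CCND1 means were also lower in the other comparisons, on the joint scale. In 501Mel they were 1251 CPM in shSCR1 and 371 in shBRG1, and 592 in shSCR2 and 255 in shMITF. In Hermes 3A they were 4393 CPM in shSCR and 3264 in shBRG1. The list's median log2 change was -0.14, 0.052, -0.28 and -0.42 for shBRG1 and shMITF in 501Mel and shBRG1 and shMITF in Hermes 3A.

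Receptor tyrosine kinases upstream of RAS also changed. KIT, the stem cell factor receptor, was called down with shBRG1 in 501Mel from 585 to 124 CPM (-2.24 ± 0.055). PDGFRA was called up with shBRG1 in both lines (1.96 ± 0.34 and 2.04 ± 0.29) and with shMITF in Hermes 3A (2.14 ± 0.42), and PDGFRB with shMITF in both (2.02 ± 0.55 and 1.90 ± 0.50), all from under 1 CPM. AXL was called up with shMITF in 501Mel, from 0.27 to 1.92 CPM (2.73 ± 0.45), and FGFR3 with shBRG1 in Hermes 3A (1.38 ± 0.14). Of the 12 receptors, 6 rose and 5 fell in shBRG1 and 3 rose and 2 fell in shMITF of 501Mel, 8 rose and 1 fell in shBRG1 and 4 rose and 1 fell in shMITF of Hermes 3A, where 80.3%, 20.5%, 56.9% and 17.0% of all genes passed in the same order.

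**Figure D5:**
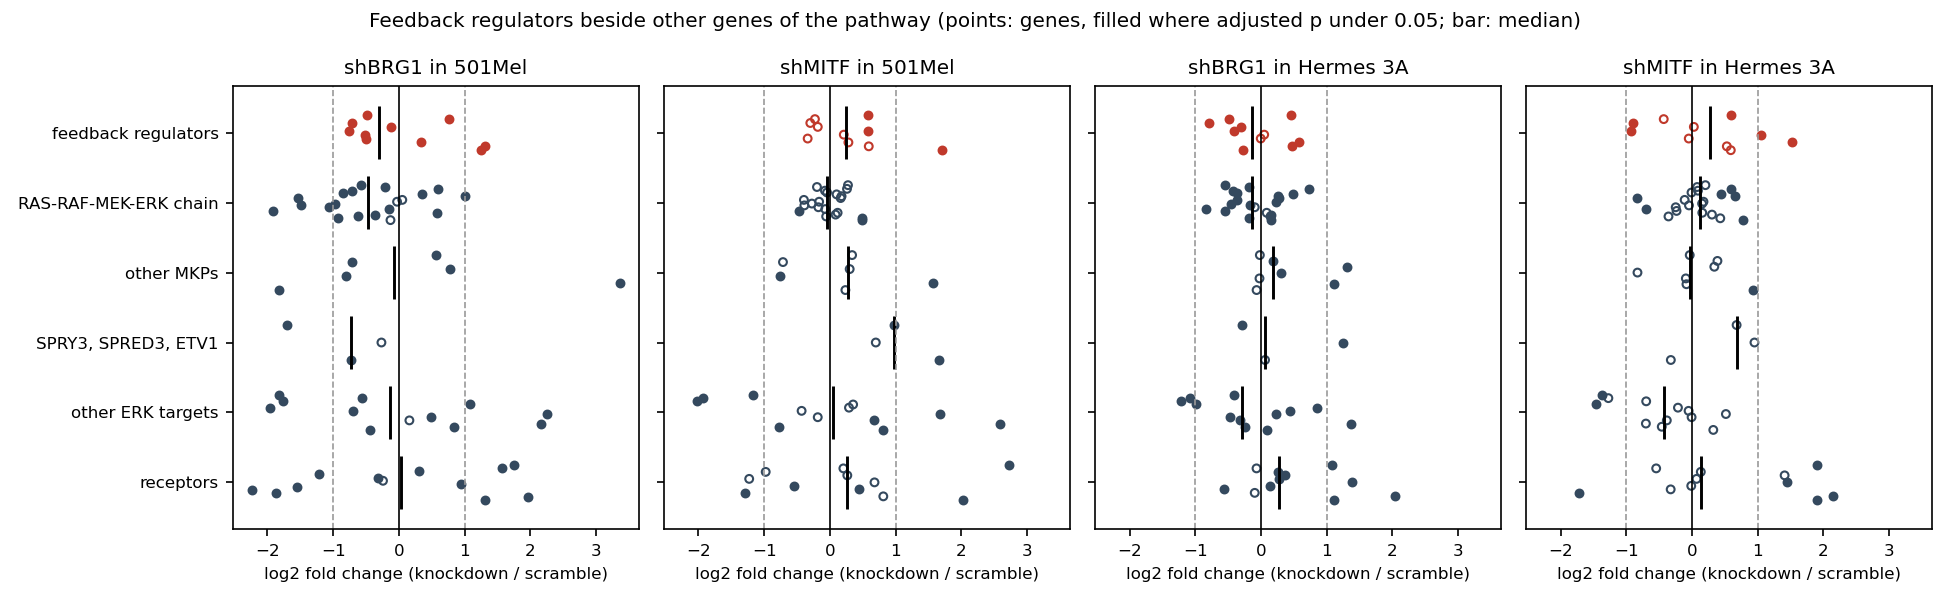
Log2 fold changes of the 10 feedback regulators (top row of each panel) and of 5 lists of other genes of the pathway in the 4 comparisons. Points are genes, filled where the adjusted p was under 0.05 in edgeR's quasi-likelihood test, and bars are list medians; each list holds genes on both sides of 0 with shBRG1 in 501Mel, apart from SPRY3, SPRED3 and ETV1, which lie below it.

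Of the 13187 genes tested in all 4 comparisons with a mean of at least 1 CPM, those whose 4 log2 changes were most like those of DUSP6, the member most used as a readout of ERK activity, were CD320 (root mean square difference 0.0842), CDCA3 (0.112), FANCD2 (0.117), FBXO25 (0.137) and ERP29 (0.138). No member was among them. ETV5 came nearest, at rank 1136 (0.479), followed by SPRED2 at rank 2447 and ETV4 at rank 2688. The Sproutys were far from it, at ranks 11868 for SPRY2, 12033 for SPRY1 and 12275 for SPRY4. DUSP6 and the Sproutys took opposite directions in 501Mel after BRG1 silencing, with DUSP6 at -0.71, SPRY2 at 1.31 and SPRY4 at 1.25.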

How the data were processed

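RNA was measured in 19 bulk samples by sequencing of rRNA-depleted libraries that were normalised with a duplex-specific nuclease, a step that lowers abundant cDNAs and so compresses high levels. Per the labels, the submitters' processing notes name CASAVA 1.8, TopHat 1.4.1, Bowtie 0.12.7 and the hg19 build; the counting program, its annotation and use of strand are not given in the sources used here. The deposited values are raw read counts per Ensembl gene, 1 file per sample, and the files of different groups list different numbers of genes (34033 to 42224), so each fit used the genes listed for its groups. Of 44717 gene IDs, 40913 were given a symbol through the reference annotation.

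Counts were tested with edgeR 4.0.16 in R 4.3.3 (TMM normalisation, filterByExpr, robust quasi-likelihood fit), each knockdown against its own scramble group, with Benjamini-Hochberg adjustment over all genes tested. Differences between effects and between scramble groups were contrasts in fits of the groups involved. A gene was called at an adjusted p under 0.05 and a log2 change over 1, the thresholds of the study. CPM within a comparison were TMM-normalised over its samples; joint levels were normalised over all 19 samples on the genes listed for all (33031), and divided by GENCODE 29 exon length where genes were compared. Alternatives were DESeq2 1.42.0, library sizes alone, no filter, at least 10 counts in every sample, a replicate block, each sample left out, all groups of a line in one fit and pooled scramble controls. The code was tested on simulated counts. Replicates differed by more than sampling noise.

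The 10 members were named whatever their values, with up to 2 called genes of the largest change from each list of related genes per comparison and the 5 genes whose changes were most like those of DUSP6. The members and lists were chosen with earlier results of these data known. Gene coordinates are from GENCODE 29 (GRCh38), matched by Ensembl ID and not in the build of the reads. Promoter windows are from RefSeq (GRCh38.p14): 6 members were matched, and DUSP4, DUSP5, ETV4 and ETV5 had no window in the table. The marker PECAM1 had no match. Of the marker lists, the 7 melanocyte and 4 fibroblast genes are reported as sums; VWF and CDH5 stayed at or under 83 and 23 counts, and KRT10 had 898 to 2741.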

Additional observations from a re-analysis of the deposited data

Results flagged for a closer look

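Each of the following results differed between the lines in a direct test, edgeR's quasi-likelihood test of the 501Mel change minus the Hermes 3A change. After BRG1 silencing the log2 differences were 1.50 ± 0.076 for SPRY4, 1.22 ± 0.12 for DUSP5 and 0.81 ± 0.068 for SPRY2, all higher in 501Mel. They were -0.97 ± 0.061 for DUSP4, -0.60 ± 0.075 for SPRED1, -0.53 ± 0.063 for SPRED2, -0.37 ± 0.066 for ETV5 and -0.27 ± 0.11 for SPRY1, all lower in 501Mel. SPRY4, DUSP5 and DUSP4 took opposite directions in separate fits of the lines, with SPRY4 at 1.25 in 501Mel and -0.28 in Hermes 3A, DUSP5 at 0.76 and -0.49, and DUSP4 at -0.49 and 0.45. The falls of SPRY4 and DUSP5 in Hermes 3A did not pass with all groups of that line in one fit (edgeR adjusted p = 0.42 and 0.0515). That fit takes in the shMITF samples, which spread more widely, and the sizes of the falls were nearly the same in it. After MITF silencing ETV5 differed by 1.49 ± 0.24, from 0.58 in 501Mel and -0.92 in Hermes 3A. That difference depends on the 501Mel control. The 501Mel change of ETV5 was 0.0008 against both scramble groups pooled (edgeR adjusted p = 0.999), and shSCR2 was below shSCR1 by -0.84 ± 0.066. MITF itself differed by -1.15 ± 0.079 after BRG1 silencing, and the part of that difference in the values above was not tested. Line, medium and batch cannot be told apart. No group held enough samples for a test of single outlying samples.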

How the results depend on the processing

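The 40 log2 changes of the 10 genes were recomputed under each alternative, which gave 480 values: 418 kept their direction and their side of the threshold, 34 lost an adjusted p under 0.05, 11 gained it and 17 changed sign. The largest reported log2 change among those that changed sign was 0.28, of SPRY1 with shMITF in 501Mel. The sign of ETV4 with shBRG1 in 501Mel changed with library sizes alone (0.23) and under a filter of 10 counts per sample (0.0054), and with shMITF with pooled scramble controls (0.14). SPRED2 in Hermes 3A changed sign with library sizes alone (0.10 with shBRG1, 0.039 with shMITF) and under that filter (0.0076, shBRG1), and SPRY1 with shMITF in 501Mel with pooled controls (-0.68). Leaving out each sample in turn spanned 0 for SPRY1 (-0.16 to 0.74), SPRED1 (-0.19 to 0.51) and ETV4 (-0.46 to 0.11) with shMITF in 501Mel, for SPRED1 (-0.00019 to 0.088) and SPRED2 (-0.026 to 0.0098) with shBRG1 in Hermes 3A, and for SPRED2 (-0.15 to 0.086) and ETV4 (-0.37 to 0.20) with shMITF in Hermes 3A. The cause was not tested.

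With no fold-change threshold the members called up and down were 4 and 6 for shBRG1 and 3 and 0 for shMITF in 501Mel, 3 and 5 for shBRG1 and 3 and 2 for shMITF in Hermes 3A, 8 and 1 for the line differences of shBRG1 and shMITF, 6 for shBRG1 minus shMITF, and 10, 9 and 7 for the 3 scramble contrasts. Of all genes 80.3%, 20.5%, 56.9%, 17.0%, 57.9%, 2.99%, 48.1%, 74.9%, 72.5% and 66.8% passed by that rule, in the same order. With no expression filter 1 member was called up with shMITF in Hermes 3A. Leaving out each sample in turn gave 0 to 2 called up and 0 to 2 called down there, 2 to 3 for the line difference of shBRG1, 1 to 2 for that of shMITF, 1 to 4 for shBRG1 minus shMITF in 501Mel (1 without shMITF replicate 2), 3 to 4 for shSCR2 against Hermes 3A and 0 to 2 for shSCR2 against shSCR1 (0 without shSCR2 replicate 2). The last contrast also gave 2 with library sizes alone, under that filter and with the replicate block. Scaling to library size alone put the median log2 change of all genes at 0.40 with shBRG1 in 501Mel and at 0.11 to 0.14 in the other comparisons.

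Replicate numbers were not treated as pairs: samples with the same number deviated from their group means with correlations of -0.049 to 0.049 in the comparisons with 3 pairs and of 0.13 in that with 2. With the replicate block, the genes called up and down over all tested with shMITF in 501Mel went from 990 and 602 to 1127 and 730. The members called stayed at 2 up with shBRG1 and 1 up with shMITF in 501Mel, 0 with shBRG1 and 2 up with shMITF in Hermes 3A. Under the replicate block DUSP4 with shMITF in Hermes 3A did not pass, and ETV4 there changed sign, to -0.044. The members had at least 206 counts in every sample.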
